A study of Mus musculus with 24 samples.

Results

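Hamp and Hamp2 are the mouse genes for hepcidin and its paralog. They were taken from the arrays by name, as every probe named Hamp or Hamp2, and each has 1 probe with 1 spot, so they are 2 of the 37008 named features on the array. Hepcidin is a peptide hormone that hepatocytes secrete into the blood, where it binds the iron exporter ferroportin on gut cells and macrophages and has it degraded, so that less iron enters the plasma. Its transcription is raised by BMP ligands acting through SMAD proteins when iron is plentiful and by interleukin-6 acting through STAT3 in inflammation, and it falls after blood loss, when developing red cells need iron. Erythroferrone, the product of Erfe, is a hormone of erythroid precursors that binds BMP ligands and lowers hepcidin. Mice carry 2 hepcidin genes side by side, and the iron-regulating activity is known for the product of Hamp.

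All arrays came from male mice of genotype Erfe-/- in a study of bleeding by retro-orbital puncture. The 3 times were 0 h, labelled as control, and 24 h and 48 h, labelled as phlebotomy, and each time had 4 liver and 4 bone marrow arrays, so that p-values measure the spread between the 4 samples of a group. The labels and the design text do not settle whether the 0 h mice were punctured. Every group, controls included, lacked Erfe, and arrays of mice with an intact Erfe gene, the animals' age and the volume bled were not analysed here. Both Erfe probes were below the detection mark of the scanner software in 12 of 12 livers, and in marrow 1 of them was above it on 1 of 12 arrays and the other on 0, which does not test the genotype because no mouse with Erfe was analysed here.

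The probes are shown first because the paralogs are alike and the values depend on telling them apart. In both sequences, read 5′ to 3′ along the transcript, capitals mark the bases that differ between the probes in their best ungapped alignment, and the single overhanging base of each is in lower case.
Hamp probe: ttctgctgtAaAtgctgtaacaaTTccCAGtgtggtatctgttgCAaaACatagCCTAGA
Hamp2 probe: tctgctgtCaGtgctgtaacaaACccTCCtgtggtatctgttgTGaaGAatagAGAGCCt
The Hamp probe lies on the minus strand of mm9 at chr7:31727490-31727549 and the Hamp2 probe on the same strand at chr7:31707520-31707579, with 19910 bases between them. Of 59 aligned bases, 42 were identical (71.2%) and 17 differed, and the longest shared run was 14 bases. Cross-hybridisation between the 2 transcripts was not tested. The exon and the untranslated region that each probe reads were not analysed here.

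The regions before the 2 start sites are much closer to each other than the probes are. They are shown because they hold sites through which BMP and STAT3 signals are known to act on Hamp. Bases farther upstream were not analysed here. The 250 bases before each annotated start come from RefSeq, build GRCm38.p6, both on the minus strand, Hamp from chr7:30944030-30944279 and Hamp2 from chr7:30924182-30924431. Capitals mark matches to the motifs named below, and in Hamp2 also the 6 bases opposite the Hamp match to GGCGCC.
Hamp promoter: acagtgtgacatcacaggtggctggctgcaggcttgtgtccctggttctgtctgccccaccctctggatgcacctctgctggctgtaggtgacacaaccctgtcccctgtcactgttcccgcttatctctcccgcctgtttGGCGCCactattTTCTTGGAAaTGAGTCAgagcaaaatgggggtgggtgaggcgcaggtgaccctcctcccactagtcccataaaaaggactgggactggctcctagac
Hamp2 promoter: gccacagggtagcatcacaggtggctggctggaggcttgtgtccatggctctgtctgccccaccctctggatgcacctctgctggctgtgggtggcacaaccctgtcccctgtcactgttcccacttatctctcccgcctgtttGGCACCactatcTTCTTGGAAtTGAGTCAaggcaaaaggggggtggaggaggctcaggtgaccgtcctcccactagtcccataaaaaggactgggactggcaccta
Of 247 aligned bases, 227 were identical (91.9%), with 20 substitutions and 0 gaps. The core of the BMP-responsive element, GGCGCC, was found 1 time in Hamp, from base 109 to base 104 before the start, and 0 times in Hamp2, where the aligned bases read GGCACC. That difference is the substitution G106A, written with the Hamp base first, the position counted back from the Hamp start site, and the Hamp2 base last. The STAT motif TTCNNNGAA was found 1 time in each promoter, as TTCTTGGAA, 97 bases before the Hamp start and 94 before the Hamp2 start. The bZIP motif TGAGTCA was also found 1 time in each, and the E-box CACGTG 0 times in either. Searched on both strands in the same 250-base window of 32851 promoters, GGCGCC was present in 9.59%, TTCNNNGAA in 7.02%, TGAGTCA in 4.46% and CACGTG in 6.02%. No match overlapped another. A match is a string of letters only, and binding was not measured.

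In liver, Hamp was lower in all 4 livers at 48 h than in any liver at 0 h, by 3.38-fold on average, and Hamp2 was lower in 3 of 4. Neither difference passed the threshold when adjusted over all genes tested. Levels are given as log2 of the spot intensity minus the array's 75th percentile, so a difference of 1 is a doubling of intensity relative to that percentile. In whole tissue, fewer cells of a type and less RNA per cell cannot be told apart. The 4 livers at 0 h had Hamp levels of 6.66, 7.14, 7.49 and 7.43. The 24 h livers had 6.39, 7.10, 6.94 and 6.20, which overlapped with the 0 h livers. The 48 h livers had 6.60, 4.97, 5.39 and 4.74: replicate 1 lay just under the lowest 0 h liver, and the other 3 lay far below all remaining livers, with a gap of 0.81 above them.

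Hamp averaged 7.18 ± 0.38 (SD, n = 4) in the 0 h livers, 6.66 ± 0.43 (SD, n = 4) in the 24 h livers and 5.42 ± 0.83 (SD, n = 4) in the 48 h livers. At 48 h Hamp was lower than at 0 h by 1.76 ± 0.37 (SE) on the log2 scale, which is 3.38-fold. All 4 livers at 48 h were below all 4 at 0 h, for which the exact permutation test (two-sided) gave p = 0.0286, the lowest value possible with 4 against 4. Such a separation downwards was seen for 2.44% of the 19649 genes tested. The change was the third lowest of all 19649 changes, and its limma p was 0.00058, but its limma adjusted p was 0.421. limma called 0 genes at 48 h, although 6.44% of genes had an unadjusted p under 0.05, and 3.88% had one with a lower level.

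The difference between 24 h and 0 h was smaller. Hamp differed by -0.52 ± 0.37 (SE), with p = 0.114 by exact permutation and 0.631 by limma after adjustment. From 24 h to 48 h it differed by -1.24 ± 0.37 (SE), with p = 0.0857 by exact permutation and 0.507 by limma after adjustment, and replicate 1 at 48 h lay inside the 24 h range. Genes with an unadjusted p under 0.05 made up 10.9% of all genes at 24 h against 0 h and 7.63% at 48 h against 24 h, 3.95% with a lower level. Of these 3 contrasts, Hamp was under 0.05 unadjusted in both that involve 48 h.

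Hamp2 levels at 0 h were 4.74, 4.45, 4.13 and 3.66. At 24 h they were 4.59, 4.76, 2.92 and 3.01, so 2 livers were near the top of the 0 h range or above it and 2 were below all 0 h livers. At 48 h they were 3.96, 2.51, 2.12 and 1.87, with replicate 1 again the highest and inside the 0 h range. Means were 4.25 ± 0.46 (SD, n = 4), 3.82 ± 0.99 (SD, n = 4) and 2.61 ± 0.93 (SD, n = 4). The difference of 48 h from 0 h was -1.63 ± 0.53 (SE), the ninth lowest of all genes tested, with 3 of 4 livers below all 0 h livers. Its exact permutation p was 0.0571 and its limma adjusted p 0.635. Hamp2 differed by -0.42 ± 0.53 (SE) at 24 h, with a limma adjusted p of 0.795, and by -1.21 ± 0.53 (SE) between 24 h and 48 h, with a limma adjusted p of 0.632.

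**Figure D1:**
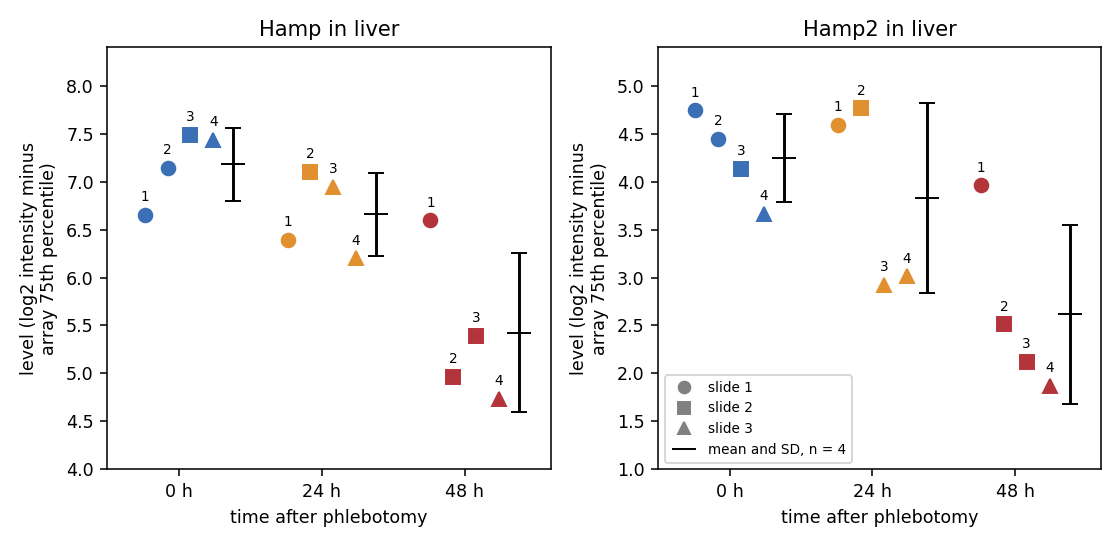
Levels of Hamp (left) and Hamp2 (right) in the 12 livers by time after phlebotomy, as log2 intensity minus the array's 75th percentile; small numbers are replicates, marker shapes are slides, and black bars are the mean and SD of 4 livers. Replicate 1 at 48 h, at 6.60 for Hamp and 3.96 for Hamp2, sits apart above the other 3 livers of its time for both genes.

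The size of these changes and the call of Hamp depended on 1 liver, replicate 1 at 48 h. Without it, Hamp at 48 h differed from 0 h by -2.15 ± 0.27 (SE) with a limma adjusted p of 0.0225, and 9 genes were called in that contrast instead of 0. Without it Hamp2 differed by -2.08 ± 0.47 (SE), with a limma adjusted p of 0.296. Replicate 1 stood out by its own Hamp and Hamp2 levels, the highest at 48 h, so leaving it out enlarges both changes by itself. The values without it are therefore a description and not a test. With any other single liver left out, Hamp at 48 h against 0 h was not called. The arrays lay on 3 slides, and each slide held livers of all times. The difference of Hamp at 48 h from 0 h was -0.30 on slide 1, which holds replicate 1, -2.31 on slide 2 and -2.70 on slide 3. For Hamp2 it was -0.64, -1.82 and -1.80. With slide as a block, Hamp differed by -1.75 and Hamp2 by -1.46, with limma adjusted p of 0.634 and 0.567.

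The 24 h difference of Hamp2 was -0.00 on slide 1, 0.63 on slide 2 and -0.69 on slide 3, and -0.03 with slide as a block. The same differences of Hamp were -0.50, -0.38 and -0.86. Both 24 h livers with low Hamp2 were on slide 3, and at 0 h the slide 3 liver also had the lowest Hamp2. With 1 or 2 livers of a time on a slide, the slide's part in these values was not tested further.

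Tested directly, the changes of the paralogs did not differ beyond their spread. The Hamp change minus the Hamp2 change was -0.12 at 48 h against 0 h (95% confidence interval -1.21 to 0.96, exact permutation p = 0.80). It was -0.10 at 24 h (95% confidence interval -1.65 to 1.46) and -0.03 between 24 h and 48 h (95% confidence interval -1.29 to 1.24).

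The summed level of erythroid markers was highest in the livers with the lowest Hamp. The summed level of the 9 erythroid markers on the array, among them the globin genes Hba-a1 and Hbb-bt, ran from 7.65 to 7.98 in the 0 h livers, from 8.19 to 8.31 in the 24 h livers and from 8.19 to 8.84 in the 48 h livers. The 48 h liver with the highest Hamp, replicate 1, was the one at 8.19, at the lower edge of the 24 h livers, and the other 3 were at 8.74 to 8.84. The groups at 24 h and 48 h did not overlap with 0 h (exact permutation p = 0.0286 for each, the lowest value possible for groups of this size). The sum was chosen after the data were seen, so these p-values are given as a description. The sum adds unlogged levels, so Hba-a1, the brightest marker, makes up most of it. Hba-a1 had means of 7.44 at 0 h and 8.32 at 48 h, against 7.80 and 8.64 for the sum. Among the markers, Rhag was well above background in 0 of 12 livers and Epb42 in 1 of 12. Between 5 and 7 markers were detected on each liver array. The differences of 48 h from 0 h ran from -0.32 for Alas2, the erythroid heme synthesis enzyme, to 1.83 for Ahsp, the alpha globin chaperone. Hba-a1 differed by 0.88, Hbb-bt by 1.12 and Slc4a1, the red cell anion exchanger, by 1.66. Klf1, detected in 12 of 12 livers, differed by 0.08. Over the 12 livers, Hamp and this sum had r = -0.863 and Spearman's rho = -0.755, and Hamp2 had r = -0.753 and rho = -0.545. As deviations from the mean of each time, r was -0.603 for Hamp (exact permutation p = 0.204) and -0.505 for Hamp2 (exact permutation p = 0.177). Without the 3 livers at 48 h that were at 8.74 to 8.84, the other 9 gave r = -0.504 for Hamp and -0.240 for Hamp2, as a description with no test. The part of blood or erythroid RNA in the hepcidin values was not tested. The summed hepatocyte markers were 12.66 to 12.85 in the 0 h livers, 12.62 to 12.72 in the 24 h livers and 12.54 to 12.88 in the 48 h livers, so that all 3 groups overlapped.

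Livers with high Hamp tended to have high Hamp2, and the 3 livers with the lowest Hamp also had the lowest Hamp2. Over 12 livers Pearson's r was 0.761 (permutation p = 0.0044) and Spearman's rho 0.608 (permutation p = 0.0395). Leaving out the 2 livers farthest from the median of Hamp, replicates 2 and 4 at 48 h, gave r = 0.566 (permutation p = 0.0876), and leaving out any 1 liver gave 0.665 to 0.824. Because replicates 2, 3 and 4 at 48 h formed a set of their own, the relation was also computed over the other 9 livers, where r was 0.133 and rho 0.0833. These 9 livers were chosen by their Hamp level after the data were seen, which narrows the range of Hamp and can lower r by itself, so values of r over them are given here and below as a description with no test. As deviations from the mean of each time, r was 0.466 (exact permutation p = 0.211), and as deviations from the slide means it was 0.861. Within a time, with 4 livers each and no test, r was -0.856 among the 0 h livers, 0.256 among the 24 h livers and 0.927 among the 48 h livers, so the 0 h livers ran in nearly opposite order for the 2 genes. Of genes detected on all 12 livers, 66 of 17660 genes (0.374%) had a higher r with Hamp than Hamp2 had, and 56 (0.317%) a higher r with Hamp2 than Hamp had.

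**Figure D2:**
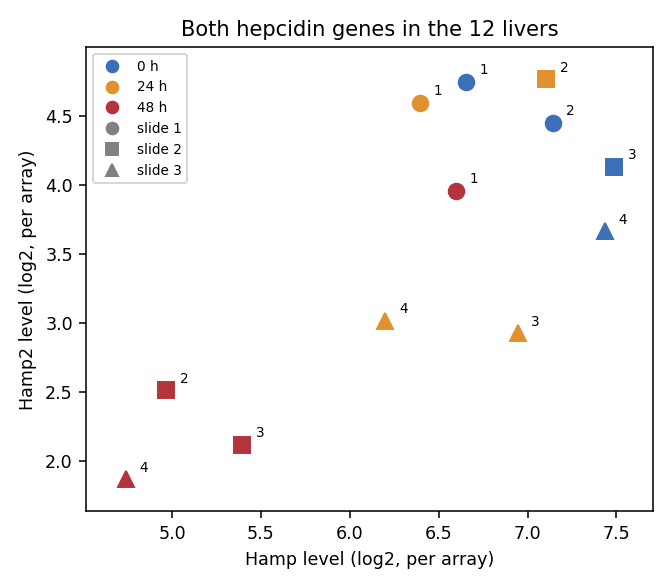
Hamp against Hamp2 level in the 12 livers, both in log2 intensity minus the array's 75th percentile, coloured by time, with marker shapes for slides and replicate numbers beside the points. Replicates 2, 3 and 4 at 48 h lie together at the lower left, and the other 9 livers form a cloud in which r was 0.133.

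Genes tied to hepcidin regulation were taken from 7 lists of 109 genes, of which 106 had a level in all 12 livers. This gave 212 relations with the 2 hepcidin genes. The lists hold regulators, but also targets of the same signals, such as Id3 and the acute phase genes, and genes of iron handling. After Benjamini-Hochberg adjustment over the 212 relations, 0 passed by Pearson's r (the lowest adjusted permutation p was 0.0763, and 21 were under 0.05 unadjusted) and 1 passed by Spearman's rho. That relation was Hamp with Id3. Genes below that are named for their r alone, Twsg1, Hgf, Aco1, Heph, Crp and Il1r1, were chosen after their values were seen. As deviations from the time means, 10 of 212 were under 0.05 unadjusted and 0 after adjustment.

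Id3, Id1, Smad7, Smad6 and Atoh8 are direct targets of BMP-SMAD signalling, and the highest r with Hamp of all listed genes were those of Id3 and Smad7. Id3 levels were 2.44, 2.92, 3.21 and 3.14 at 0 h, 2.88, 2.66, 2.53 and 2.37 at 24 h, and 2.42, 2.09, 1.95 and 2.17 at 48 h. All 4 livers at 48 h lay below all 4 at 0 h, and replicate 1 was again the highest at 48 h. Id3 at 48 h differed from 0 h by -0.77 ± 0.17 (SE), with a limma adjusted p of 0.474 and an exact permutation p of 0.0286. With Hamp, Id3 had r = 0.850 (permutation p = 0.00036, adjusted 0.0763) and rho = 0.902 (permutation p = 0.00013, adjusted 0.0276). Over the 9 livers with high Hamp, r was 0.756, and as deviations from the time means it was 0.563. With Hamp2, Id3 had r = 0.679 over 12 livers and 0.235 over the 9.

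Smad7 encodes an inhibitory SMAD that BMP signals induce. Its levels were -0.50, -0.07, 0.06 and 0.06 at 0 h, -0.84, -0.40, -0.69 and -0.67 at 24 h, and -0.35, -0.88, -1.32 and -0.78 at 48 h. Smad7 was low in most livers at both later times, and replicate 1 was the highest at 48 h. It differed from 0 h by -0.54 ± 0.19 (SE) at 24 h and -0.72 ± 0.19 (SE) at 48 h, with limma adjusted p of 0.391 and 0.522. With Hamp, Smad7 had r = 0.791 (permutation p = 0.0021, adjusted 0.184) and rho = 0.860 (adjusted permutation p = 0.0579), 0.917 without the 2 livers farthest from the median and 0.836 over the 9 livers with high Hamp. When the kept probes of Smad7 were averaged instead of the brightest being used, r with Hamp was 0.547 and the 48 h difference -0.34, so its probes differed. With Hamp2, Smad7 had r = 0.599 over 12 livers and 0.157 over the 9.

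**Figure D3:**
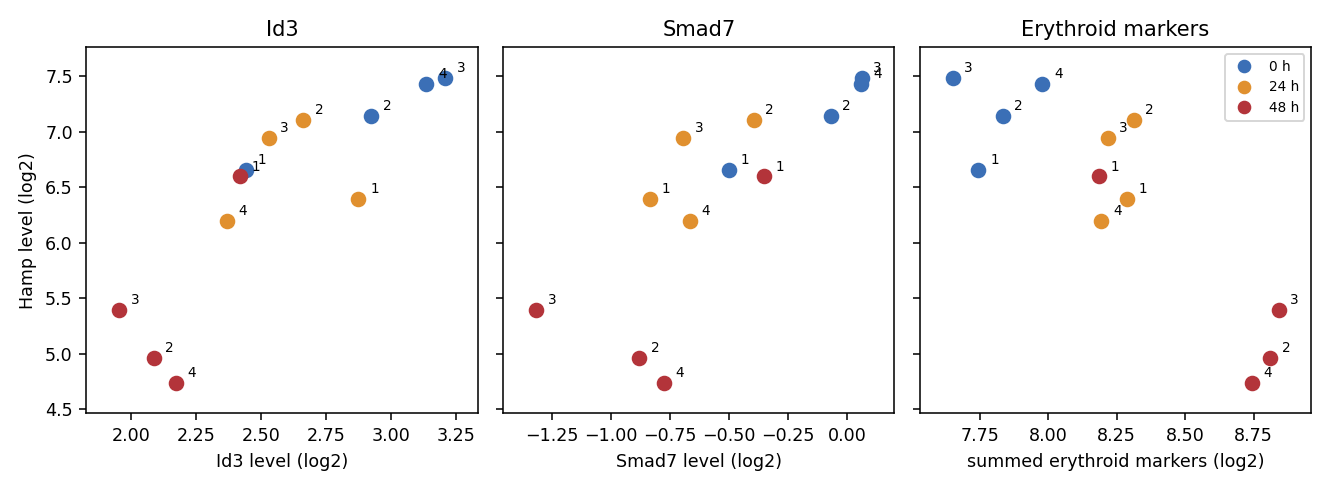
Hamp level (vertical axis, log2) in the 12 livers against the levels of Id3 and Smad7 and against the summed level of the erythroid markers, all in log2 intensity minus the array's 75th percentile, coloured by time and numbered by replicate. Livers with high Hamp have high Id3 (r = 0.850) and Smad7 (r = 0.791) and a low erythroid sum (r = -0.863), and replicate 1 at 48 h lies among the 0 h and 24 h livers in all 3 panels.

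The remaining BMP targets were less close. Id1 had r = 0.663 with Hamp and 0.618 with Hamp2 over 12 livers, and 0.325 and 0.159 over the 9, and its level differed from 0 h by -0.62 ± 0.34 (SE) at 48 h with a limma adjusted p of 0.821. Atoh8 differed from 0 h by -0.47 ± 0.18 (SE) at 24 h with a limma adjusted p of 0.408, and had r = 0.507 with Hamp and 0.220 with Hamp2. Smad6 had r = 0.223 with Hamp and 0.491 with Hamp2. Over the whole list of 11 BMP-SMAD targets, 0 were called, 2 had an unadjusted p under 0.05 with a lower level at 24 h and 2 at 48 h (5.97% and 3.88% of all genes), and the median change was -0.22 at 24 h and -0.11 at 48 h, against -0.02 for all genes in both contrasts.

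Of the list of BMP ligands, receptors and the SMAD proteins that carry their signal, none had an unadjusted permutation p under 0.05 for r with either hepcidin gene. Bmp6, the ligand that sinusoidal endothelium makes in response to iron, differed from 0 h by -0.01 ± 0.23 (SE) at 24 h and -0.24 ± 0.23 (SE) at 48 h, and had r = 0.427 with Hamp and 0.499 with Hamp2. Bmp2, made by the same endothelium, had r = -0.399 with Hamp and -0.393 with Hamp2. Hjv, which encodes the BMP co-receptor hemojuvelin, had r = 0.237 and 0.365. Of these 20 genes, 4 of them SMADs, 0 were called, and at an unadjusted p under 0.05 in each contrast 1 was higher and 1 lower, a share near that of all genes (10.9%, 6.44% and 7.63%). Bmp7 was lower at both later times (-0.83 and -0.72), Gdf2 higher at 48 h (0.28), Neo1 higher at 24 h (0.22) and lower after it (-0.28), and Bmp2 higher at 48 h than at 24 h (0.39). The median r over the 19 with levels in all livers was -0.01 with Hamp and -0.06 with Hamp2.

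From the list named lowering hepcidin, 13 genes were tested, and the direction in which each acts on hepcidin was not tested. Among these 13, Fgl1 had the highest change at 24 h and Gdf15 at 48 h, and 0 were called. Gdf15, a stress-induced member of the TGF-beta family, was 1.33 ± 0.33 (SE) higher at 24 h and 1.46 ± 0.33 (SE) higher at 48 h than at 0 h, with limma adjusted p of 0.325 and 0.502. All 48 h livers were above all 0 h livers, the lowest at 48 h being 1.45 and the highest at 0 h 1.33. The share of all genes separated upwards in this way was not counted. Fgl1, a hepatocyte protein that binds BMP ligands, was 1.37 ± 0.57 (SE) higher at 24 h with a limma adjusted p of 0.431. Gdf15 had r = -0.591 with Hamp and -0.423 with Hamp2, and -0.183 with Hamp as deviations from the time means. Twsg1, which encodes a BMP-binding protein, had r = -0.695 with Hamp and -0.737 with Hamp2, and Hgf, the hepatocyte growth factor, -0.629 and -0.732. Over the 9 livers the relations with Hamp were -0.352 for Twsg1 and -0.0721 for Hgf, and those with Hamp2 were -0.611 and -0.506. Tmprss6, the protease that cleaves hemojuvelin, differed from 0 h by 0.01 ± 0.08 (SE) at 48 h and had r = -0.138 with Hamp.

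Among genes of iron sensing and handling, Tfr2 and Hfe, whose products take part in sensing transferrin iron, had r = -0.488 and 0.181 with Hamp, and neither had an unadjusted p under 0.05. Tfrc, the transferrin receptor of iron uptake, was 0.86 higher at 24 h and 1.06 lower at 48 h than at 24 h, without being called (limma adjusted p = 0.431 and 0.542). Slc39a14 (0.39) and Cp (0.26) were higher and Ireb2 (-0.26) lower at 24 h, each with an unadjusted p under 0.05 only. Aco1, which encodes iron regulatory protein IRP1, had r = 0.685 with Hamp over 12 livers and -0.0201 over the 9. Heph, a ferroxidase, had r = 0.686 with Hamp2 over 12 livers and 0.781 over the 9, and r = 0.304 with Hamp over 12, and the difference between the paralogs was not tested. Of the 14 genes tested here, 7 had an r above 0 with each hepcidin gene.

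Acute phase genes are induced by STAT3, as Hamp is in inflammation, and here several were higher at 24 h without passing the adjusted threshold, while Hamp was not. Saa1 was 2.38 ± 0.81 (SE) higher at 24 h than at 0 h and 2.20 lower at 48 h than at 24 h, with limma adjusted p of 0.370 and 0.569. Of the 17 acute phase genes, 6 had an unadjusted p under 0.05 with a higher level at 24 h and 0 with a lower one, against 4.95% and 5.97% of all genes, and 0 were called. These were Saa1, Saa2, Lcn2, Serpina3n, Fga and Apcs, with changes of 2.38, 2.27, 2.45, 0.87, 0.46 and 0.98. The 0 h liver of replicate 1 already had Saa1 at 9.13, within the 24 h range of 8.05 to 9.53, against 5.26 to 6.78 in the other 0 h livers, and it was also the highest 0 h liver for the other 5 genes. Without it the 24 h differences of Saa1 and Lcn2 were 3.21 and 3.30. The median change of the list was 0.44 at 24 h and 0.17 at 48 h. With Hamp, 17 of 17 had an r below 0 (median -0.409), and with Hamp2, 12 of 17 (median -0.156). Over the 17660 genes detected on all 12 livers, the median r was 0.00485 with Hamp and -0.000608 with Hamp2. Whether the 17 genes vary independently of each other was not tested. Fga, a fibrinogen chain, had r = -0.703 with Hamp over 12 livers and -0.821 as deviations from the time means. Lbp, the lipopolysaccharide-binding protein, had r = -0.665 with Hamp, and Crp had r = -0.646 with Hamp2.

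The 13 inputs to STAT3 signalling also had 0 calls. Il6, the cytokine itself, differed from 0 h by 1.13 ± 0.64 (SE) at 24 h and 0.97 ± 0.64 (SE) at 48 h and had r = -0.440 with Hamp. Its signal was dim, and 0 h replicates 2 and 4 were at -6.18 and -6.63. These lay below the lowest levels detected on those arrays, -3.96 and -4.89, while the remaining 0 h livers were at -3.44 and -3.74. Stat3 and its feedback inhibitor Socs3 had r = -0.562 and -0.615 with Hamp, and -0.274 and -0.422 with Hamp2. Tnf (0.35 at 24 h), Il6st (0.28 at 24 h) and Lifr (-0.56 at 24 h) had unadjusted p under 0.05 and were not called. Il1r1, the interleukin-1 receptor, had r = -0.726 with Hamp and -0.596 with Hamp2, and Tnf had -0.614 and -0.442. With Hamp, 12 of these 13 genes had an r below 0 (median -0.403), against a median of 0.00485 over the 17660 genes detected on all 12 livers.

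**Figure D4:**
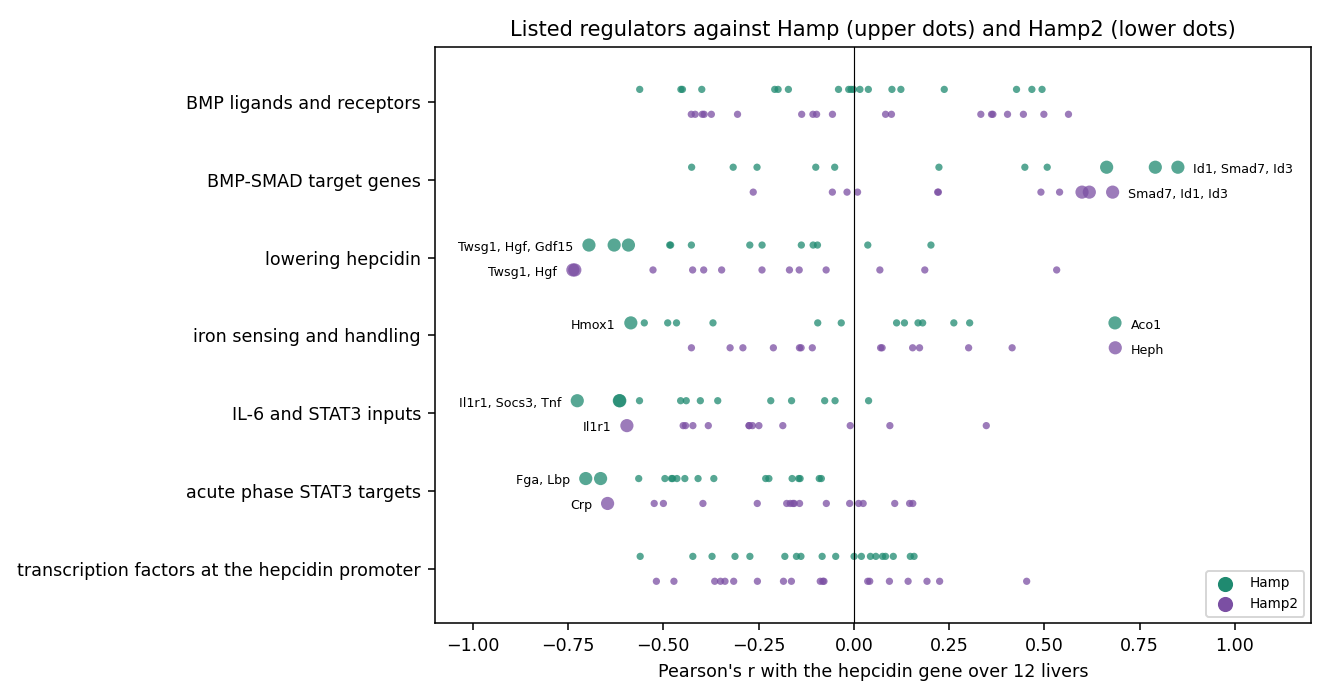
Pearson's r of each listed gene with Hamp (green, upper dots) and Hamp2 (purple, lower dots) over 12 livers, by list. The first list also holds 4 SMAD genes, and the lists include targets of the same signals as well as regulators. Large named dots have an unadjusted permutation p under 0.05, and for r none passed after adjustment over 212 relations. Id3 (0.850) and Smad7 (0.791) lie farthest to the right with Hamp, and all 17 acute phase genes lie to the left of 0 with Hamp.

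Cebpa, Usf2 and Creb3l3 encode transcription factors known to act at the hepcidin promoter. They had r = 0.158, -0.273 and -0.0831 with Hamp, and differed from 0 h at 48 h by -0.00, 0.12 and -0.03. Of the 19 factors, 0 had an unadjusted p under 0.05 for r with either gene. Esr1, the estrogen receptor, was 0.48 higher at 24 h than at 0 h, and Cebpb was 0.60 higher at 48 h than at 24 h, both with an unadjusted p under 0.05 and limma adjusted p of 0.340 and 0.615.

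The genes whose levels were most like those of Hamp were sought among 17660 genes detected on all 12 livers, as a description without a test. The highest r with Hamp was that of Matk, a Csk-type kinase, at 0.927, followed by Nr5a1, a nuclear receptor of steroid-making tissues, at 0.918, Aldh1a7 at 0.916, Cryzl2 at 0.902 and Ass1, a urea cycle enzyme, at 0.885. Matk had a mean of -0.54 at 0 h and -0.89 at 48 h. Ass1 is also 1 of the 10 hepatocyte markers. The lowest r with Hamp was that of Lsr, a lipoprotein receptor gene, at -0.885, and the alpha globin genes Hba-a1 and Hba-a2 came next at -0.868 and -0.866. With Hamp2 the highest were Sulf2, a heparan sulfate sulfatase, at 0.854, Hspa12b at 0.852, Tnni2 at 0.846, Tmod3 at 0.842 and Efcab2 at 0.840, and the lowest were Zdhhc18 at -0.924, Mroh1 at -0.912 and Scamp5 at -0.908. All points in these relations share the array scale.

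On the chromosome, Lsr lies next but one to Hamp, with Usf2 between them and the pseudogene Usf2-ps1 between Hamp and Hamp2. Lsr was 0.29 higher at 48 h than at 0 h (unadjusted limma p = 0.0032), while Usf2 differed by 0.12 and had r = -0.273 with Hamp and -0.518 with Hamp2. On the other side of Hamp2, Mag, Cd22 and Ffar3 differed by -0.22, 0.21 and -0.29 at 48 h, with unadjusted limma p of 0.374, 0.0759 and 0.132. Fam187b, beyond Lsr, differed by -0.18 at 48 h from 0 h and by -0.56 from 24 h to 48 h, with unadjusted limma p of 0.339 and 0.0084.

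In bone marrow, neither gene was well above background on most arrays. Hamp was detected on 1 of the 11 marrow arrays with a usable spot, 24 h replicate 2, at a level of 3.53, and the other 10 lay between -7.97 and -5.08. Hamp2 was detected on 2 of 12, the same array at 1.08 and 0 h replicate 1 at -4.30, and was between -7.15 and -5.38 on the rest. By the scanner software's other mark, a signal positive and significant against background, Hamp was detected on 4 and Hamp2 on 12 of 12 marrow arrays. The lowest detected level on a marrow array was -5.83 to -4.83. On the 24 h replicate 2 array, 10 of 10 hepatocyte markers were detected, with a median of 11.7% of their mean liver level (7.16% to 39.7%), and Hamp was at 11.4% and Hamp2 at 14.9% of their 24 h liver means. On the other 11 marrow arrays the median of the hepatocyte markers was 0.00296% to 0.0503% of liver. The highest of these was 0 h replicate 1, the array on which Hamp2 was faintly detected.

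One further marrow spot was bright. The Hamp spot on 48 h replicate 3 had an intensity of 4730 but was marked as a non-uniform outlier by the scanner software and was left out; the other 3 arrays of that time read 3.34 to 4.85, and its own array had 4 of 10 hepatocyte markers detected, with a median of 0.00661% of liver. At 0 h, where no marrow array was well above background, liver Hamp was at least 5361-fold higher. The permutation tests here compare mean levels and not the bounds, and the exact permutation p at 0 h was 0.0286. In the 48 h samples, over 3 marrow arrays, liver Hamp was at least 1854-fold higher, and at 24 h without replicate 2 at least 4155-fold. The exact permutation p was 0.0571 for each, the lowest value possible with 4 against 3. Hamp2 was at least 238-fold higher in liver at 48 h (exact permutation p = 0.0286). Without replicate 2 it was at least 582-fold higher at 24 h (exact permutation p = 0.0571). Each bound sets the mean liver level against the lowest level detected on each marrow array. They compare levels relative to each array's 75th percentile, which was 361 to 473 intensity units in liver and 715 to 955 in marrow. All 5 bounds depend on the background correction. With normexp, which adds an offset to every signal, the log2 differences of Hamp at 0 h, 24 h and 48 h were 10.6, 10.2 and 9.06, below the 12.39, 12.02 and 10.86 of the bounds, and those of Hamp2 at 24 h and 48 h were 7.35 and 6.10, below 9.18 and 7.90.

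**Figure D5:**
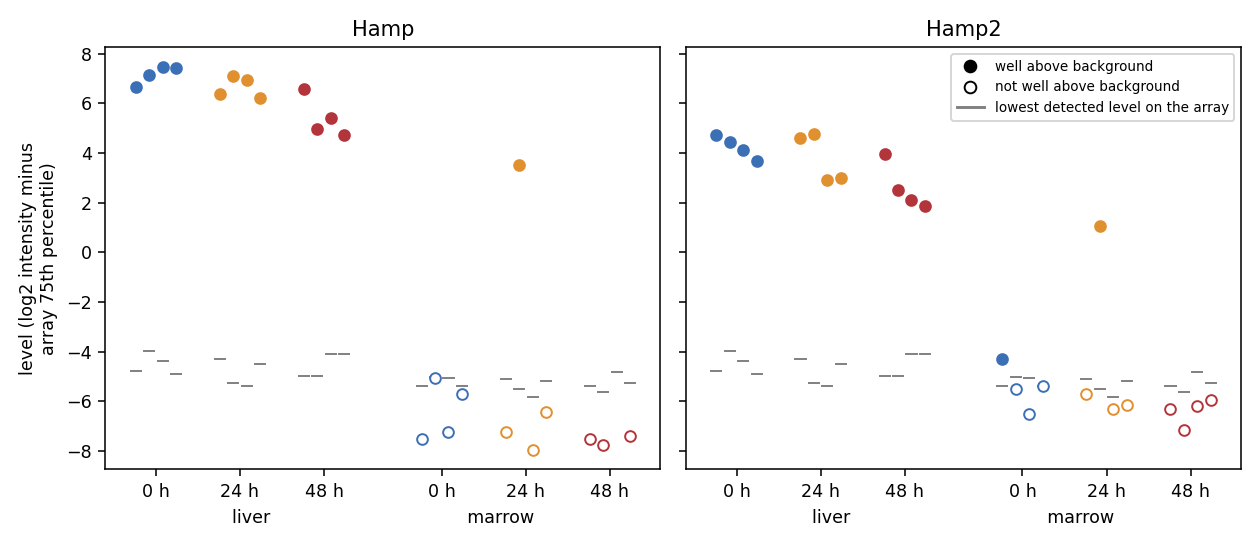
Levels of Hamp (left) and Hamp2 (right) on every liver and marrow array by time, in log2 intensity minus the array's 75th percentile; filled points are well above background, open points are not, and grey ticks are the lowest detected level on each array. Marrow 24 h replicate 2 stands alone at 3.53 for Hamp and 1.08 for Hamp2, and the outlier spot of Hamp at 48 h is not drawn.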

How the data were processed

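RNA from liver and bone marrow was measured on 24 single-colour arrays, 1 per sample. Per the file headers, the deposited values are processed spot intensity after background subtraction, with no scaling across arrays. The scanner software was Agilent Feature Extraction 10.10.1.1, per the submitters' processing notes. A table of log2 values deposited by the authors, whose making is not given in the sources used here, served only as an alternative.

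From the processed intensity, log2 was taken and each array's 75th percentile subtracted. Control spots and outlier spots were left out. A probe was kept if, for 1 or more liver times, every array marked it well above background, and the brightest kept probe stood for a gene, which gave 19649 genes. Liver arrays detected 28079 to 34499 probes and marrow arrays 32368 to 35771, with 0 saturated. Precision is limited by how many arrays a group has. The 3 liver times were fitted together in limma 3.58.1 under R 4.3.3 (lmFit, eBayes), with Benjamini-Hochberg adjustment over all genes and a threshold of 0.05. Single values were compared with exact two-sided permutation tests, and correlations with 100000 permutations, or all 13824 orders within times, in SciPy 1.17.1 under Python 3.11.15. Promoters were aligned with Biopython 1.88. The fit was tested on simulated data.

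Alternatives were other scalings, background corrections, filters and blocks, the authors' values, and leaving out each liver. Relations over the 9 livers with high Hamp, the erythroid sum and the omission of 1 marrow array were chosen after seeing the data. The level of 1 erythroid marker is not reported here. The genes, lists and rules were chosen with earlier results of these data known. Named were both hepcidin genes, 20 fixed list genes, and other list members under 0.05 unadjusted in a liver contrast. The 5 highest and 3 lowest correlated genes and the chromosome neighbours were also named. Chromosome order came from a table of assembly GRCm38.p6, and probe positions are those of mm9.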

Additional observations from a re-analysis of the deposited data

Results flagged for a closer look

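A single array lay far from the other 3 of its group, by more than a Dixon test at 95% allows, in 7 of 146 groups of 4 checked, and chance alone flags about 1 in 20. For Hamp in marrow at 24 h, replicate 2 was at 3.53 and the others at -7.97 to -6.45, and for Hamp2 the same array was at 1.08 and the others at -6.30 to -5.71. Liver replicate 1 at 24 h was low for Bmp2 (1.02 against 1.54 to 1.62) and Atoh8 (-1.15 against -0.46 to -0.36). Liver replicate 1 at 48 h was high for Bmp7 (-0.62 against -1.30 to -1.20) and low for Il6st (2.12 against 2.39 to 2.44). Liver replicate 4 at 24 h was high for Fga (7.32 against 7.11 to 7.14). The Hamp spot left out on marrow 48 h replicate 3 had an intensity of 4730, above the 3.34 to 4.85 on the other arrays of that time.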

How the results depend on the processing

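Under 14 other settings of scaling, background, filter, probe choice, variance, weights and blocks, Hamp at 48 h against 0 h ranged from -1.90 to -1.71 (limma adjusted p 0.230 to 0.999) and Hamp2 from -1.63 to -1.46 (0.469 to 0.999), and 0 genes were called in any contrast. Leaving out each liver gave -2.15 to -1.53 for Hamp and -2.08 to -1.38 for Hamp2 at 48 h, -0.69 to -0.37 and -0.74 to -0.12 at 24 h, and -1.63 to -1.01 and -1.66 to -0.90 between 24 h and 48 h. Counts of called genes were 0 to 9 at 48 h (9 without 48 h replicate 1), 0 to 2 at 24 h and 0 to 1 between them (both highs without 24 h replicate 4). With the replicate block, Hamp and Hamp2 at 48 h kept changes of -1.76 and -1.63 (limma adjusted p 0.746 and 0.631), and the block called 0 genes. The replicate numbers were not treated as pairs: same-numbered livers correlated between -0.270 and 0.153, and 4 of 12 were most like their own number.

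Within slide 1 Hamp differed by -0.30 at 48 h and 0.20 between 24 h and 48 h, and Hamp2 by -0.64 at 48 h. Within slide 2 these were -1.92 for Hamp and -2.45 for Hamp2 between 24 h and 48 h and 0.63 for Hamp2 at 24 h, and within slide 3 -2.70 for Hamp at 48 h. The r of Hamp with Hamp2 was 0.665 to 0.824 without any 1 liver, 0.466 as deviations from the time means, 0.566 without the 2 farthest livers and 0.133 over the 9 livers, whose choice narrows the range of Hamp. The Hamp change minus the Hamp2 change took both signs when livers were left out: -0.49 to 0.25 at 24 h (0.04, 0.18 and 0.07 without 0 h replicate 3, 0 h replicate 4 or 24 h replicate 2), -0.46 to 0.16 at 48 h (0.02 without 0 h replicate 3) and -0.37 to 0.37 between them (0.09, 0.03 and 0.09 without 24 h replicate 4, 48 h replicate 1 or 48 h replicate 2). The r of Hamp with Aco1 turned to -0.0201 over the 9 livers. Marked positive and significant instead of well above background, Hamp was detected on 4 marrow arrays and Hamp2 on 12. Well above background, without 24 h replicate 2, they were detected on 0 and 1. Of 441 alternative values for the other 21 relations, 325 kept their side of 0.05 and 115 lost it. The cause of these shifts was not tested. All 962 alternative values for the 37 changes of list genes kept their direction and stayed uncalled.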
